A study of Mus musculus with 24 samples.

Results

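The mRNA levels of 10 immediate early genes were followed in 2 populations of bone marrow (BM) lymphoid progenitors with and without the phospholipases PLCγ1 and PLCγ2. The genes were taken by symbol from the deposited count tables, and all 10 were present among the 24421 gene symbols. They were the AP-1 genes Fos, Fosb, Fosl2, Jun, Junb and Jund, the zinc finger genes Egr1, Egr2 and Egr3, and the orphan nuclear receptor gene Nr4a1. Immediate early genes are transcribed within minutes of a stimulus without new protein synthesis, and their mRNAs are short-lived. Fos and Jun proteins pair through leucine zippers to form AP-1, whereas Jun proteins can also pair with one another. PLCγ produces diacylglycerol and inositol trisphosphate, second messengers whose protein kinase C, JNK and calcium branches are known inputs to these genes, and Egr proteins act in lymphocyte development partly by inducing Id3.

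Donor-derived (CD45.2+) cells were sorted from the BM of transplant recipients as CLPs, gated Lin-IL-7R+, or as B cell progenitors, gated on B220 and IL-7R without surface IgM, and their poly(A) RNA was sequenced. The 4 donor genotypes were the control Plcg1+/+Plcg2+/+, the single deficiencies Plcg1-/-Plcg2+/+ for PLCγ1 and Plcg1+/+Plcg2-/- for PLCγ2, and the double deficiency Plcg1-/-Plcg2-/-, with 3 libraries of each genotype in each population and 24 libraries in all. Plcg1 was floxed and deleted by Cre under the type I interferon-inducible Mx promoter, so deletion was not restricted to one lineage, and Plcg2 was deleted in the germ line. All donors, controls included, were described as carrying Mx-Cre and the Rosa-YFP reporter and as treated with poly(I-C), and the recipients were lethally irradiated wild-type CD45.1+ mice. The title of each sample carries an animal tag that ties the CLP library of a mouse to its B cell progenitor library. The number of donors per genotype was not given, so n counts recipients, and p-values measure the spread between recipients. The comparisons address whether loss of either or both phospholipases alters these genes in the progenitors.

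The CLP libraries held 4232345 to 33219995 reads on genes, and the B cell progenitor libraries 1479582 to 25057223. Levels are given as normalized CPM, reads per 1e6 reads on genes after TMM scaling, and 3 reads corresponded to 0.0909 to 0.731 CPM in CLPs and to 0.129 to 2 CPM in B cell progenitors, which covers counting error alone. Plcg2 lay between 72.1 and 138 CPM in the 12 libraries labelled Plcg2-/- and between 183 and 282 CPM in the other 12. Plcg1 lay between 56.1 and 185 CPM in the 12 libraries labelled Plcg1-/- and between 77.4 and 113 CPM in the others, so its gene-level count did not separate the labels, and the deleted exons are not given in the sources used here. The genotypes are therefore those of the labels throughout. All 12 libraries labelled Plcg1-/- were high in Xist and the other 12 were not, so sex and this genotype cannot be told apart. The B cell marker Cd79a was present in every library of both populations, at 107 to 1180 CPM in CLPs and at 270 to 955 CPM in B cell progenitors. Flt3, a marker of CLPs, ranged from 25.8 to 735 CPM in CLPs and from 28.4 to 111 CPM in B cell progenitors. Over the mean of genotypes, 2 of 10 B cell progenitor markers were called higher and 2 of 6 CLP and stem cell markers lower in B cell progenitors, with 14.4% of tested genes called. In Plcg1+/+Plcg2+/+ cells alone 0 of either list were called, with 3.5% of tested genes called, so these markers set the populations only partly apart. The granulocyte genes Mpo and Elane were also read in every library, Mpo between 638 and 4340 CPM. Between Plcg1-/-Plcg2-/- and Plcg1+/+Plcg2+/+ cells, 0 markers of stem cells, B cell progenitors, macrophages and monocytes, granulocytes, T and NK cells or erythroid cells were called in either population. All 7 granulocyte markers nevertheless had higher means in Plcg1-/-Plcg2-/- cells of both, with median log2 differences of 1.27 in CLPs and 1.5 in B cell progenitors. All 7 were also higher in each single deficiency than in Plcg1+/+Plcg2+/+ cells. Those medians were 1.02 (Plcg1-/-Plcg2+/+) and 0.918 (Plcg1+/+Plcg2-/-) in CLPs, and 0.983 and 0.916 in B cell progenitors. Other lists shifted too. In Plcg1-/-Plcg2-/- cells, 8 of 9 macrophage and monocyte markers had higher means than in Plcg1+/+Plcg2+/+ cells in each population (medians 0.618 in CLPs and 0.735 in B cell progenitors). T and NK cell markers were higher for 8 of 8 in B cell progenitors but 1 of 8 in CLPs, and stem cell markers for 5 of 6 and 2 of 6. Of 5 mature B cell markers, Cd22 was called lower in Plcg1-/-Plcg2-/- than in Plcg1+/+Plcg2+/+ B cell progenitors (log2 difference -1.62, SE 0.24). The part of these markers in the members' differences was not tested. In bulk RNA, fewer cells of a type and less RNA per cell cannot be told apart.

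Promoter windows of 250 bases before the transcription start were taken from RefSeq (GRCm38.p6) for 8 of the 10 genes, all but Egr1 and Egr3. The windows shown belong to Fos, Fosb, Jun, Junb, Egr2 and Nr4a1, whose levels varied together across libraries, and to Jund and Fosl2, whose levels followed the other members least closely. They are written 5′ to 3′ on the strand of the gene, and capitals mark TGACG on either strand (CGTCA on the other), TATAAA, TGACATCA and the CArG box, the binding element of serum response factor. The positions were chr12:85473640-85473889 (plus strand) for Fos, chr7:19310046-19310295 (minus strand) for Fosb, chr8:84978749-84978998 (minus strand) for Junb and chr10:67537619-67537868 (plus strand) for Egr2, which has 5 listed starts. They were chr4:95052223-95052472 (minus strand) for Jun, chr15:101266596-101266845 (plus strand) for Nr4a1, chr8:70697489-70697738 (plus strand) for Jund and chr5:32136222-32136471 (plus strand) for Fosl2.
Fos: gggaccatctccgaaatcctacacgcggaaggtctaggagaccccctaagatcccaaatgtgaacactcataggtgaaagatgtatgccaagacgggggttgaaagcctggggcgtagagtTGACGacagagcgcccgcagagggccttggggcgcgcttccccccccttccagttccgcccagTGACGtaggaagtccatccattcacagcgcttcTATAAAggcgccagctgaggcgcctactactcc
Fosb: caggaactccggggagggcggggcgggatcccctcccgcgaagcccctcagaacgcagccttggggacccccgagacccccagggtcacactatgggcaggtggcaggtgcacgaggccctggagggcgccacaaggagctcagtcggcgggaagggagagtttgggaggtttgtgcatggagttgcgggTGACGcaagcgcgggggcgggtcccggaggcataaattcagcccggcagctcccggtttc
Jun: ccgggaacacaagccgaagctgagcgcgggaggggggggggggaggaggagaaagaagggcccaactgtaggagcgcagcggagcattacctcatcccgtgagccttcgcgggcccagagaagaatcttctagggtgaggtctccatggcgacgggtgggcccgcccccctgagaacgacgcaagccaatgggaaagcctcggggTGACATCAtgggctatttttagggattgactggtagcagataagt
Junb: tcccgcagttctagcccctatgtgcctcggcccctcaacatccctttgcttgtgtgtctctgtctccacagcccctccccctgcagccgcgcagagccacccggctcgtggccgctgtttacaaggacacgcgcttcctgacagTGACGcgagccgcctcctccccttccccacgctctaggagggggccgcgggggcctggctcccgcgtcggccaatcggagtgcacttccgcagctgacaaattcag
Egr2: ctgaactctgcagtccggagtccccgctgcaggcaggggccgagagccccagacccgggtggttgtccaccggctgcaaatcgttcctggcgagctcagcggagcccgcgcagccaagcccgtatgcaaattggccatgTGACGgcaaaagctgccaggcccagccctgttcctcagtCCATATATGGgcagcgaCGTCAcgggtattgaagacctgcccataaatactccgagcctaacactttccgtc
Nr4a1: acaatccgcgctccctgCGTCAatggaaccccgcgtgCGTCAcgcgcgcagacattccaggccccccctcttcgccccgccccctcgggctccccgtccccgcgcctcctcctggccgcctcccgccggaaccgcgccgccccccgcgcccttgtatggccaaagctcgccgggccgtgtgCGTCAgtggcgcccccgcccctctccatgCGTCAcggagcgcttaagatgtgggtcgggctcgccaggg
Jund: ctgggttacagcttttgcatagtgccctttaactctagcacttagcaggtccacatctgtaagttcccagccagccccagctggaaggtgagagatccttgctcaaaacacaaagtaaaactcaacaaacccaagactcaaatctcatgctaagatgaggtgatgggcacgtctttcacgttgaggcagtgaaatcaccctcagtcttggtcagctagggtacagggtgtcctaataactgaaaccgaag
Fosl2: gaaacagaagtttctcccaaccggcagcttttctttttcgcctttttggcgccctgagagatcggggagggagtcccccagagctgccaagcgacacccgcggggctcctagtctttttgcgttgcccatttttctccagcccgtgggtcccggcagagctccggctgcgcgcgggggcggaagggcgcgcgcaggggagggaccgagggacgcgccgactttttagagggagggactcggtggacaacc

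TGACG, the half-site of the cyclic AMP response element, was found in the windows of Fos, Fosb, Junb, Egr2 and Nr4a1, 5 of the 8 genes, against 17.8% of 32851 windows of the same length. The first count is per gene and the share is per window, and Egr2 was counted if any of its 5 windows matched. Nr4a1 held 4 copies, Fos 2 and Fosb 1. A CArG box was found for Egr2, in 4 of its 5 windows, against 1.47% of all windows. These windows are not independent, since those starting at 67537619, 67537620 and 67537680 overlap and hold the same box, CCATATATGG. The window starting at 67537316 holds a separate box, CCTTTTTTGG, and that starting at 67535249 holds none of the motifs. TATAAA stood in the window of Fos and in 12.4% of all windows. Jun held TGACATCA, an AP-1 type element present in 2.93% of windows, and no TGACG, although its level varied as closely with those of Fosb and Junb (Pearson's r of 0.95 and 0.94 over 24 libraries). TGACGTCA (1.55% of windows), TGACTCA (4.46%) and the Egr motif GCGTGGGCG (0.536%) were in none of the 8 genes' windows on either strand. The letters were searched after the members' values were known, TGACG is contained in TGACGTCA, and a match is a description of the sequence only.

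Per kilobase of exon, the AP-1 genes Jund, Jun, Fos and Junb were the most abundant members in both populations. The median in B cell progenitors over 12 libraries was 761 CPM per kb for Jund, 370 for Jun, 308 for Fos and 185 for Junb. Jund was first or second of the 10 genes in every B cell progenitor library and Junb followed Jund, Jun and Fos in every one. In CLPs, the medians were 595 CPM per kb for Jund, 502 for Fos, 442 for Jun and 422 for Junb, and each of the 4 genes was first in at least 1 library, so their order was not fixed. Fosb, Egr1 and Nr4a1 came next, with medians of 112, 93.4 and 68.4 CPM per kb in CLPs and of 53.1, 18.9 and 7.75 in B cell progenitors. Fosl2, which encodes the late and more stable Fos protein Fra-2, had medians of 7.37 in CLPs and 6.38 in B cell progenitors. Egr2 and Egr3 were the lowest members, at medians of 2.83 and 2.87 CPM per kb in CLPs and 0.678 and 1.22 in B cell progenitors. Egr2 rested on 1 to 15 reads in the B cell progenitor libraries numbered 1, where its level has a large counting error.

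No member was called by genotype in either population in the fits without a block. Calls required an adjusted p (Benjamini-Hochberg) no higher than 0.05 in edgeR's quasi-likelihood test together with an absolute log2 difference of 0.5 or more. Between Plcg1-/-Plcg2-/- and Plcg1+/+Plcg2+/+ CLPs, 0 of 10 members were called, with 0.0921% of 15209 tested genes called. The members' log2 differences lay between -0.91 (Egr3) and 0.73 (Fosl2), with SEs of 0.36 to 1.10, and their median was -0.18 beside -0.03 over all tested genes. Between the same genotypes in B cell progenitors, 0 of 10 members were called, with 0.893% of 15001 tested genes called. There 9 of the 10 members had lower means in Plcg1-/-Plcg2-/- cells, with log2 differences between -1.51 (Fosb) and 0.47 (Fosl2), SEs of 0.54 to 1.45, and a median of -0.36 beside -0.02 over all tested genes. DESeq2 called 0 members in both comparisons, and the unadjusted p was at most 0.05 for 0 members in CLPs and for 1, Jund, in B cell progenitors. Among all tested genes, that limit was met by 1143 of 15209 in CLPs and by 1841 of 15001 in B cell progenitors.

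Fosb encodes a Fos protein whose splice form ΔFosB is long-lived. In Plcg1-/-Plcg2-/- B cell progenitors, Fosb stood at 105, 118 and 348 CPM. In Plcg1+/+Plcg2+/+ B cell progenitors, it stood at 193, 430 and 1020 CPM. The highest double-deficient library lay above the lowest control library, so the groups overlapped. The log2 difference was -1.51 with an SE of 0.79 and an adjusted p of 0.466 in edgeR's quasi-likelihood test without a block. Within replicate numbers, by which these libraries also differed, Fosb was lower in the double-deficient library in 3 of 3, at log2 differences of -0.88, -1.86 and -1.55. With the number as a block, Fosb was called (adjusted p 0.00865 in edgeR's quasi-likelihood test), with 3.67% of tested genes called. Over all tested genes, the numbers did not pair these groups, so that fit was not the main one. Fosb itself rose from number 1 to 2 to 3 in both groups. Fosb in the B cell progenitors with a single deficiency stood at 156, 315 and 1070 CPM in Plcg1-/-Plcg2+/+ cells and at 131, 358 and 595 CPM in Plcg1+/+Plcg2-/- cells.

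Jund encodes the most constitutively expressed of the Jun proteins. In Plcg1-/-Plcg2-/- B cell progenitors, Jund stood at 301, 894 and 1160 CPM. In Plcg1+/+Plcg2+/+ B cell progenitors, it stood at 1030, 2060 and 2280 CPM. A single control library, numbered 1, lay below the highest double-deficient library. The log2 difference was -1.19 with an SE of 0.54, and the adjusted p was 0.399 in edgeR's quasi-likelihood test without a block. Within replicate numbers, Jund was also lower in 3 of 3, at log2 differences of -1.78, -1.21 and -0.98. In CLPs, Jund stood at 350, 994 and 1170 CPM in Plcg1-/-Plcg2-/- cells and at 990, 1370 and 2020 CPM in Plcg1+/+Plcg2+/+ cells, with a log2 difference of -0.81 (SE 0.46, adjusted p of 0.721 by edgeR's quasi-likelihood test). The double-deficient group thus had the lower mean in both populations, and neither difference passed the test without a block. With the replicate number as a block, edgeR's quasi-likelihood test called Jund in B cell progenitors (adjusted p 0.00267) but not in CLPs (0.259). Over all tested genes, the same-numbered libraries of these groups did not all deviate together from their group means, so that fit was not the main one. Jund itself rose from number 1 to 2 to 3 in both groups of B cell progenitors, and its SE there was 0.171 with the block.

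Egr3 is induced by antigen receptor and calcineurin signals in lymphocytes. In Plcg1-/-Plcg2-/- CLPs, Egr3 stood at 2.38, 6.25 and 10 CPM. In Plcg1-/-Plcg2+/+ CLPs, it stood at 11.5, 22.8 and 30.9 CPM, and these groups did not overlap. Overlap was not counted over all tested genes. The log2 difference was -1.80 with an SE of 0.59, an unadjusted p of 0.0106 and an adjusted p of 0.787 in edgeR's quasi-likelihood test. Plcg1+/+Plcg2+/+ CLPs held 5.12, 13.8 and 15.2 CPM, a range that overlapped the double-deficient one. In B cell progenitors, Egr3 stood at 0.983, 0.987 and 11.7 CPM in Plcg1-/-Plcg2-/- cells. It stood at 3.68, 13.9 and 34 CPM in Plcg1-/-Plcg2+/+ and at 3.25, 6.77 and 19 CPM in Plcg1+/+Plcg2+/+ B cell progenitors. Both of these ranges overlapped the double-deficient one.

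Egr1 and Nr4a1, both induced by antigen receptor signals, varied more within than between genotypes in B cell progenitors. Egr1 stood at 43.3, 62.9 and 352 CPM in Plcg1-/-Plcg2-/- cells and at 65, 154 and 369 CPM in Plcg1+/+Plcg2+/+ cells. The log2 difference was -0.35 with an SE of 1.11, and the adjusted p was 0.924 in edgeR's quasi-likelihood test. Nr4a1 stood at 8.85, 25.7 and 225 CPM in Plcg1-/-Plcg2-/- cells and at 9.15, 59.3 and 228 CPM in Plcg1+/+Plcg2+/+ cells. Both pairs of groups overlapped over most of their ranges.

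The remaining contrasts between genotypes gave no call among the members either. Against Plcg1-/-Plcg2+/+ cells, all 10 members had lower means in Plcg1-/-Plcg2-/- cells in both populations. None was called, with 0.0263% of tested genes called in CLPs and 0.213% in B cell progenitors. The unadjusted p was no higher than 0.05 for 1 member in CLPs (Egr3) and for 0 in B cell progenitors. Among all tested genes, that limit was met by 653 in CLPs and by 2494 in B cell progenitors. The median log2 difference of the members was -0.95 in CLPs and -0.56 in B cell progenitors, beside -0.03 over all tested genes in each. The Plcg1-/-Plcg2+/+ CLP means included the library numbered 2, with Fosb at 5740 CPM against 373 and 1190 CPM in the others of that group. Against Plcg1+/+Plcg2-/- cells, 5 members had lower means in the double-deficient CLPs and 9 in the double-deficient B cell progenitors. None was called there, with 0.0526% and 0.153% of tested genes called. These 3 comparisons of a population share the Plcg1-/-Plcg2-/- libraries, so their directions are not independent. The members also varied together across libraries, so their directions within a comparison are not separate observations.

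The B cell progenitor libraries of the Plcg1-/-Plcg2-/- group and the Plcg1+/+Plcg2-/- group that carried the same replicate number deviated together from their group means, and the fit with the number as a block therefore stands beside this comparison. In it, 1 member was called, Jund, with a log2 difference of -0.98 and an adjusted p of 0.0447 in edgeR's quasi-likelihood test, against -0.94 and 0.548 without the block. The block raised the number of called genes from 23 to 46 among all tested genes in that comparison. In CLPs it raised it from 4 to 17 against Plcg1-/-Plcg2+/+ and from 8 to 26 against Plcg1+/+Plcg2-/- cells, with 0 members called in each.

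Single deficiency was followed by no member call. In Plcg1-/-Plcg2+/+ CLPs, 9 of 10 members had higher means than in Plcg1+/+Plcg2+/+ CLPs, with a median log2 difference of 0.82 and 0 calls (0.00658% of tested genes called), and the unadjusted p was at most 0.05 for Fosl2 alone. The library of this group numbered 2 was the highest of all 12 CLP libraries for 9 members, all but Fosl2, and held Egr1 at 2480 CPM and Fosb at 5740 CPM. In Plcg1+/+Plcg2-/- CLPs, 8 members had lower means and 0 were called, with 0% of tested genes called. In B cell progenitors, 0 members were called in Plcg1-/-Plcg2+/+ cells (0.06% of tested genes called) and 0 in Plcg1+/+Plcg2-/- cells (0.0467%). The test for a departure of the double-deficient level from the sum of both single differences called 0 members in CLPs (0.0197% of tested genes called) and 0 in B cell progenitors (0.0267%). The double-deficiency effect did not differ detectably between the populations, with 0 members and 0% of tested genes called and an adjusted p of 1 for all 10 members in edgeR's quasi-likelihood test. DESeq2 called 0 members in each contrast between genotypes. Among the contrasts named in this paragraph, the unadjusted p was at most 0.05 for Fosl2 as given above, for Egr3 in the CLP departure test and for 0 members elsewhere. Of all tested genes, 434 met that limit between Plcg1-/-Plcg2+/+ and Plcg1+/+Plcg2+/+ CLPs and 725 in the CLP departure test.

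**Figure D1:**
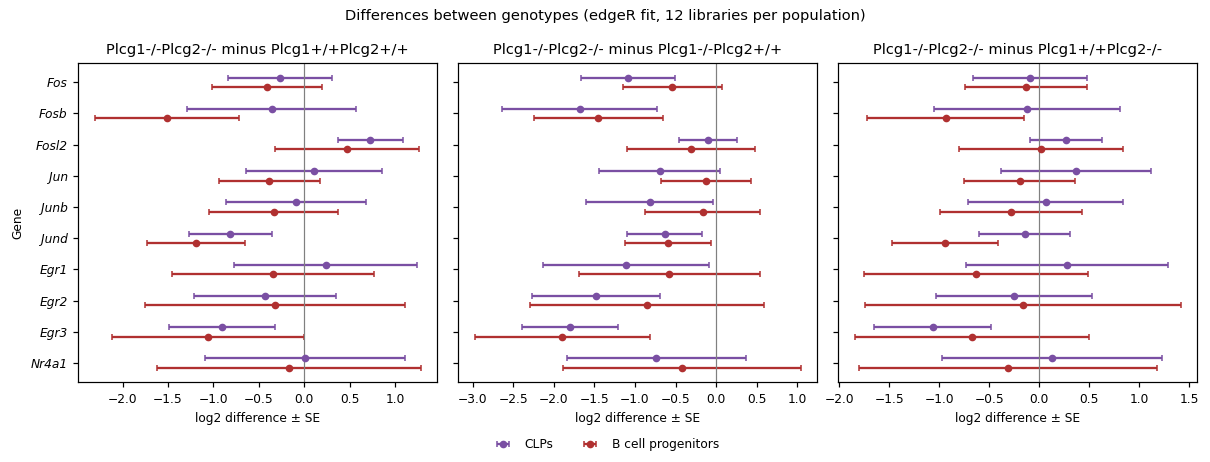
Log2 difference ± SE (x axis) of each member (y axis) between Plcg1-/-Plcg2-/- cells and each of the other 3 genotypes, in CLPs and B cell progenitors, from edgeR's fit over 12 libraries per population. Most points lie left of 0, down to -1.89 for Egr3 in B cell progenitors against Plcg1-/-Plcg2+/+ cells, with SEs of up to 1.58.

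Within a genotype, the B cell progenitor libraries differed by replicate number for every member. The pattern was noticed in the values and then tested on the same libraries, in one fit with the genotype and the number, and the labels do not say what a shared number marks. Across numbers, 10 of 10 members were called in B cell progenitors, with adjusted p values from 4.99e-05 (Egr1) to 0.0142 (Fosl2) in edgeR's quasi-likelihood test and 5.35% of tested genes called, here at the adjusted p alone. In CLPs, 0 of 10 were called, with 1.41% of tested genes called, and 2 were called by DESeq2's likelihood ratio test. In the edgeR test there, 5 members had an unadjusted p of at most 0.05, a count not made for all genes.

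Nr4a1, which encodes the nuclear receptor Nur77, showed the widest separation with Egr1 and Egr2. In the 4 B cell progenitor libraries numbered 3, one from each genotype, Nr4a1 lay between 225 and 302 CPM. In those numbered 1 it lay between 7.97 and 22.6 CPM, and in those numbered 2 between 23.6 and 59.3 CPM. The ranges of the numbers did not overlap, and the log2 difference between numbers 3 and 1 was 4.45 with an SE of 0.365. Egr1, a zinc finger factor induced by many growth and antigen receptor signals, lay between 352 and 568 CPM in number 3, against 43.3 to 65 CPM in number 1 and 62.9 to 154 CPM in number 2. Numbers 1 and 2 overlapped slightly for Egr1, and its log2 difference between numbers 3 and 1 was 3.17 with an SE of 0.24. Egr2 stood at 11.9 to 22.1 CPM in number 3 and at 0.318 to 1.48 CPM in number 1, and the groups did not overlap.

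The AP-1 genes were also higher in number 3 than in number 1, with smaller differences. For that pair of numbers, 9 of 10 members were called, all but Fosl2, with 1.36% of tested genes called. Fos, the classical AP-1 partner of Jun, lay between 1290 and 2060 CPM in number 3 and between 406 and 583 CPM in number 1, a log2 difference of 1.66 with an SE of 0.17. Fosb lay between 348 and 1070 CPM in number 3 and between 105 and 193 CPM in number 1. Junb, which can oppose Jun in proliferation, lay between 1010 and 1120 CPM in number 3 and between 228 and 299 CPM in number 1. The ranges of numbers 3 and 1 did not overlap for these 3 genes, nor for any other member except Egr3. Egr3 lay between 11.7 and 34 CPM in number 3 and between 0.983 and 13.9 CPM in number 1. Overlap was not counted over all tested genes. Jun, the founding partner of Fos in AP-1, lay between 1510 and 1830 CPM in number 3 and between 385 and 803 CPM in number 1. Jund lay between 301 and 1030 CPM in number 1, between 894 and 2120 CPM in number 2 and between 1160 and 2280 CPM in number 3, and its log2 difference between numbers 3 and 2 was 0.01 with an SE of 0.15.

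Fosl2 departed from the others, with a log2 difference between numbers 3 and 1 of 0.91 (SE 0.349) and an adjusted p of 0.3 in edgeR's quasi-likelihood test. In B cell progenitors it stood at 13.3 to 22.8 CPM in number 2 and at 71.4 to 106 CPM in number 3. In number 1 it stood at 13.2 CPM in the Plcg1+/+Plcg2+/+ library and at 59.8 to 65.9 CPM in the other 3. The summed levels of 9 macrophage and monocyte markers and of 7 granulocyte markers took the same split in B cell progenitors. The macrophage and monocyte sum lay between 403 and 610 CPM in the number 2 libraries and between 1250 and 1650 CPM in the number 3 libraries. It was 435 CPM in the Plcg1+/+Plcg2+/+ library numbered 1 and between 1820 and 2110 CPM in the other 3. The granulocyte sum lay between 1250 and 2510 CPM in number 2 and between 3880 and 5080 CPM in number 3, and it was 1240 CPM in the Plcg1+/+Plcg2+/+ library numbered 1 and 5950 to 7130 CPM in the other 3. Other marker lists also split in number 1. The T and NK cell sum was 46.6 CPM in the Plcg1+/+Plcg2+/+ library numbered 1 and 154 to 157 CPM in the other 3. It lay between 36.4 and 93.4 CPM in number 2 and between 82.7 and 186 CPM in number 3. The B cell progenitor marker sum ran the other way in number 1, at 4850 CPM against 2310 to 2510 CPM. The CLP libraries did not all show the match between Fosl2 and the macrophage and monocyte sum. The Plcg1-/-Plcg2+/+ CLP library numbered 2 held Fosl2 at 98.4 CPM with a macrophage and monocyte sum of 721 CPM, and that numbered 1 held Fosl2 at 66.2 CPM with a sum of 2620 CPM. The macrophage gene C1qa was detected at no more than 14.8 CPM in any B cell progenitor library, whereas Lyz2 reached 1730 CPM. The part of myeloid RNA in the level of Fosl2 was not tested.

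**Figure D2:**
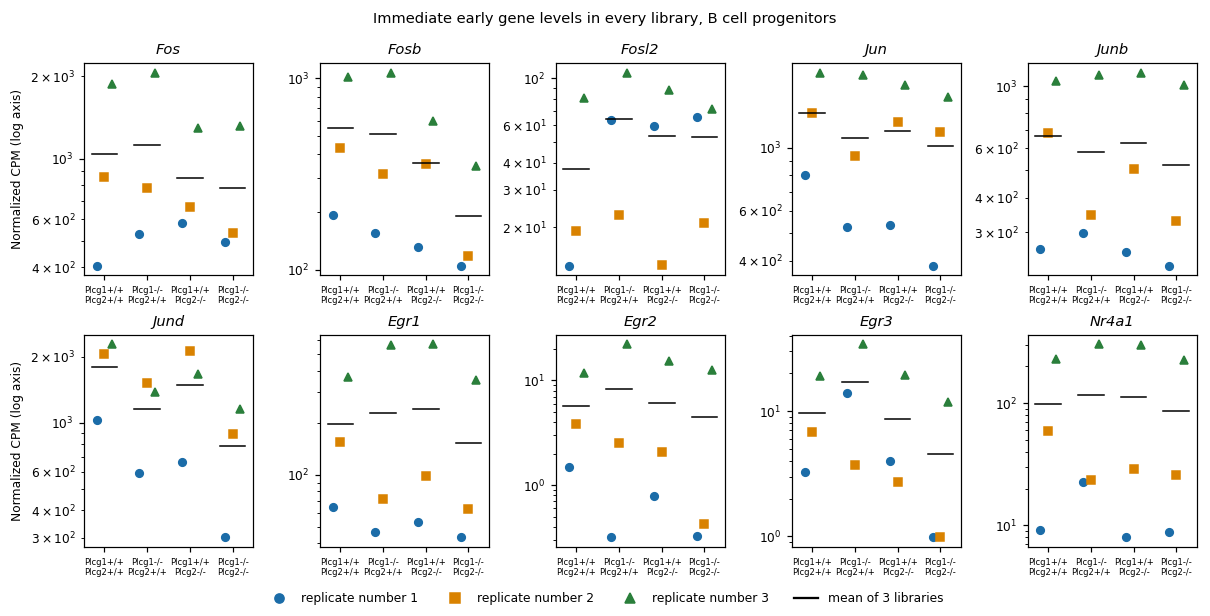
Normalized CPM (y axis, log scale) of each member in the 12 B cell progenitor libraries by genotype (x axis), with colour and marker for the replicate number and a black line for the mean of 3 libraries. The libraries numbered 3 are the highest of each genotype for 9 members, all but Jund, and for Fosl2 the libraries numbered 2 lie at 13.3 to 22.8 CPM.

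Other genes moved with the replicate number as well. Of 27 further immediate early genes, 22 of the 26 tested in B cell progenitors were called across numbers and had higher means in number 3 than in number 1, and in CLPs 2 of 27 were called, Atf3 and Zfp36l1. Atf3, a stress-induced partner of AP-1, lay between 108 and 205 CPM in B cell progenitor libraries numbered 3 and between 1.97 and 3.34 CPM in those numbered 1. In CLPs, Atf3 lay between 70 and 166 CPM in number 3 and between 7.01 and 30.3 CPM in number 1. Of 9 heat shock genes, 6 were called in B cell progenitors and 4 in CLPs, each with a higher mean in number 3 than in number 1. Over all tested genes, 5.35% were called across numbers in B cell progenitors and 1.41% in CLPs. The summed heat shock level in B cell progenitors did not follow the members' order. It lay between 1710 and 2110 CPM in number 1, between 2510 and 3780 CPM in number 2 and between 2220 and 2900 CPM in number 3. Hspa1a lay between 0.295 and 1.59 CPM in the B cell progenitor libraries numbered 1 and between 5.16 and 17.3 CPM in numbers 2 and 3, and in CLPs between 2.17 and 2.70 CPM in number 1 and 8.29 to 18.1 CPM in the others. Its near-identical copy Hspa1b can take its reads, so the levels of both are uncertain. The part of heat shock gene expression in the members' differences was not tested.

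In CLPs, the Plcg1+/+Plcg2+/+ libraries did not follow the numbers of the other genotypes. Egr1 stood at 133, 164 and 81 CPM in the number 1 libraries of the 3 deficient genotypes and at 2480, 784 and 910 CPM in their number 2 libraries. In Plcg1+/+Plcg2+/+ CLPs it was 701 CPM in number 1, 187 CPM in number 2 and 347 CPM in number 3. The order of numbers 1 and 2 was thus the opposite in Plcg1+/+Plcg2+/+ cells. Without the Plcg1+/+Plcg2+/+ library numbered 1, 8 of 10 members were called across numbers in CLPs, and without that numbered 2, 9 were called. Leaving out any other CLP library left 0 called. In B cell progenitors, 9 or 10 members were called whichever library was left out.

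**Figure D3:**
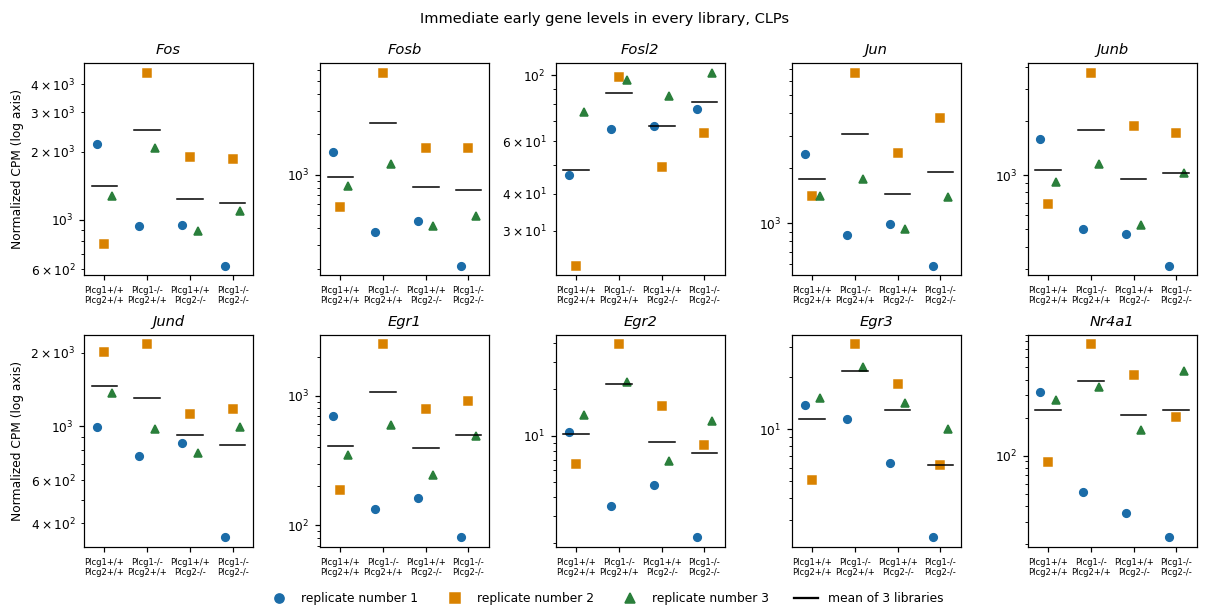
Normalized CPM (y axis, log scale) of each member in the 12 CLP libraries by genotype (x axis), with colour and marker for the replicate number and a black line for the mean of 3 libraries. In the 3 deficient genotypes Egr1 is at 81 to 164 CPM in number 1 and at 784 to 2480 CPM in number 2, whereas in Plcg1+/+Plcg2+/+ cells number 1 is the higher, at 701 CPM.

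Between the populations, the share of members called was not above that of all genes in the fit without a block, but was above it with the mouse as a block. Over the mean of the 4 genotypes, 9 of 10 members had lower means in B cell progenitors, and 1 was called, Fosb, with 14.4% of 17212 tested genes called. Fosb had a log2 difference of -1.55 with an SE of 0.47 and an adjusted p of 0.0174 in edgeR's quasi-likelihood test. The unadjusted p was at most 0.05 for 5 members and for 7185 of all 17212 tested genes, and DESeq2 called 2, Fosb and Egr1. The median log2 difference of the members was -0.88 beside 0.08 over all tested genes. In Plcg1+/+Plcg2+/+ cells alone, 0 of 10 members were called, with 3.5% of tested genes called, and 0 had an unadjusted p below the same limit.

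With the mouse as a block, which pairs both libraries of each animal by its tag, 3 of 10 members and 12.3% of all tested genes were called. They were Fosb (log2 difference -1.40, adjusted p 0.0322), Egr2 (-1.65, 0.0333) and Nr4a1 (-1.80, 0.0376), by edgeR's quasi-likelihood test with the mouse as replicate block. Within mice, Nr4a1 was lower in B cell progenitors in 11 of 12 animals, with log2 differences from -5.12 to 0.90 and a median of -1.27. Fosb was lower in 10 of 12 animals, from -4.19 to 0.53 with a median of -1.13. Egr1 was lower in 10 of 12 animals, from -5.11 to 1.21, and Egr2 in 10 of 12. Jund was lower in 5 of 12 animals, with a median of 0.05, and so showed no common direction.

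The size of the difference between populations depended on the mouse. Egr1 went from 2480 CPM in CLPs to 71.9 CPM in B cell progenitors of the Plcg1-/-Plcg2+/+ mouse numbered 2. It went from 910 to 62.9 CPM in the Plcg1-/-Plcg2-/- mouse numbered 2, from 784 to 97.9 CPM in the Plcg1+/+Plcg2-/- mouse numbered 2 and from 701 to 65 CPM in the Plcg1+/+Plcg2+/+ mouse numbered 1. In the mice numbered 3, the CLP and B cell progenitor levels of Egr1 were 347 and 369 CPM in Plcg1+/+Plcg2+/+, 593 and 561 CPM in Plcg1-/-Plcg2+/+, 246 and 568 CPM in Plcg1+/+Plcg2-/- and 491 and 352 CPM in Plcg1-/-Plcg2-/- cells. In none of the mice numbered 3 was the gap as wide as in these 4 mice. Leaving out single libraries moved the count of called members from 1. It became 7 without the number 3 B cell progenitor library of Plcg1-/-Plcg2+/+ and 4 without the number 3 library of any other genotype in that population. It became 5 without the Plcg1-/-Plcg2+/+ CLP library numbered 1, 4 without the Plcg1-/-Plcg2-/- CLP library numbered 1 and 2 without the Plcg1+/+Plcg2-/- CLP library numbered 3. With the share of reads on no gene as a covariate, 0 members were called and Fosb changed sign to 1.28. That share was 17.9% to 45.2% in CLPs against 59.9% to 87.3% in B cell progenitors, so it cannot be told apart from the population.

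**Figure D4:**
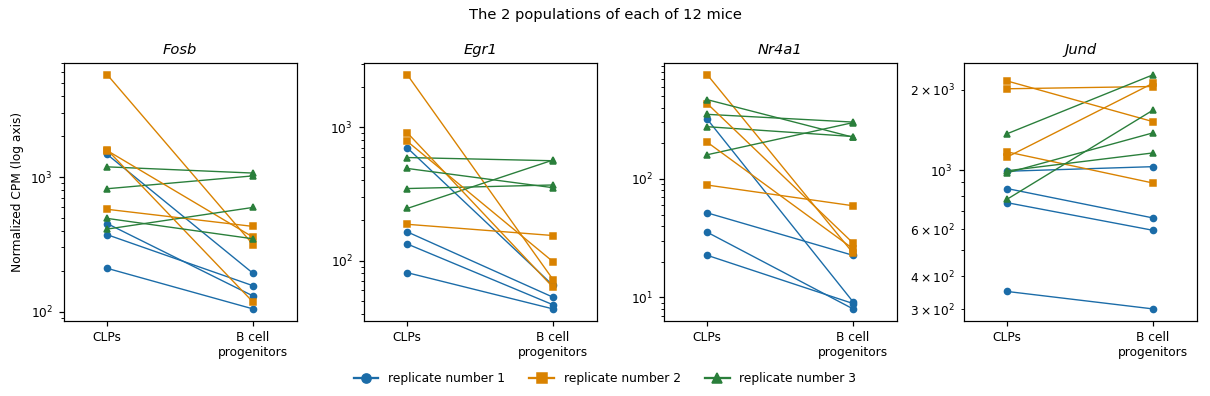
Normalized CPM (y axis, log scale) of Fosb, Egr1, Nr4a1 and Jund in the CLPs and B cell progenitors (x axis) of each of 12 mice, joined by a line, with colour and marker for the replicate number. Egr1 stays between 246 and 593 CPM in the mice numbered 3 and goes from 2480 to 71.9 CPM in the mouse with the steepest line, and Jund has no common slope.

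After the mean of each of the 8 groups was subtracted, the members varied together. Over 24 libraries, Pearson's r of log2 CPM had a median of 0.82 over the 45 pairs of members, and 23 pairs were over 0.8. Junb and Egr1 were the closest pair at 0.98, and Fos and Fosb stood at 0.96. Fosl2 was the least alike, with r of -0.13 to Jund and 0.09 to Jun, and its highest was 0.73 to Egr3. Jund came next, with 0.39 to Egr3 and 0.83 to Jun. Among 10676 other genes, those with the pattern most like that of Fos were Ier2 (r of 0.97), Socs3 (0.96), Klf6 (0.95), Arl4c (0.95) and Bhlhe40 (0.94). Those most like Egr1 were Ier2 (0.98), Nfkbiz (0.98), Socs3 (0.97), Ptgs2 (0.96) and Zfp36 (0.96). These values describe libraries that share their depth and replicate numbers, and no p is attached to them.

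**Figure D5:**
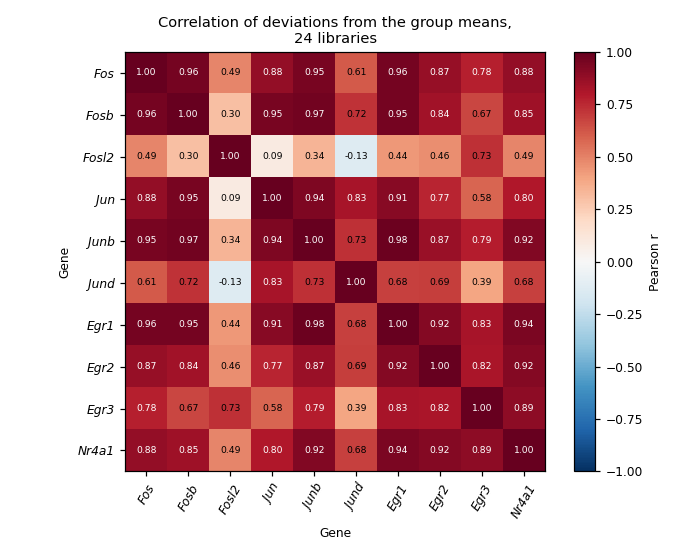
Pearson's r between members (both axes) of the deviations of log2 CPM from the 8 group means over 24 libraries, with red for positive and blue for negative values. Fosl2 forms the pale row and column, from -0.13 to 0.73, while Fos, Fosb, Junb and Egr1 lie between 0.952 and 0.979 with one another.

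Most factors around these genes were not called. Of 15 upstream factors and kinases, among them Srf and the Elk ternary complex factors, 0 were called in either population between Plcg1-/-Plcg2-/- and Plcg1+/+Plcg2+/+ cells. Between the populations, 14.4% of all tested genes were called. Of the 15, 2 were called there, Elk1 and Mapk3, lower in B cell progenitors with log2 differences of -0.55 and -0.52, a share near that of all genes. Of 11 other AP-1 partners, 9 of which were tested in B cell progenitors, 0 were called by double deficiency. Between the populations, 2 of the 11 were called, Batf3 (-1.61) and Batf (-0.95), both lower in B cell progenitors. The Egr corepressor Nab2 and Id2, an inhibitor of E proteins, were also lower in B cell progenitors, with log2 differences of -0.77 and -1.05. They were the 2 called among 4 Egr corepressor and Id genes. Id3, another such inhibitor and a known Egr target, was called across numbers in both populations, at log2 differences between numbers 3 and 1 of 1.58 in B cell progenitors and 1.81 in CLPs. Of the 27 further immediate early genes, 0 were called by double deficiency in either population. An unadjusted p of at most 0.05 was reached by 2 of them in each population, Sik1 and Klf4. Among all tested genes it was reached by 1143 of 15209 in CLPs and by 1841 of 15001 in B cell progenitors. The lowest p values among the 27 belonged to Sik1, with a log2 difference of -1.42 (SE 0.41, adjusted p 0.166) in B cell progenitors and -1.0 (SE 0.38, adjusted p 0.555) in CLPs by edgeR's quasi-likelihood test. Between the populations, 4 of the 27 were called, Ier3 (-1.96), Ier2 (-1.06), Zfp36 (-1.02) and Myc (-0.51), all lower in B cell progenitors, a share near the 14.4% of all tested genes.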

How the data were processed

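Poly(A) RNA of 24 sorted progenitor libraries was sequenced. The deposited read counts per gene symbol were made by the authors, who aligned reads with STAR (2.5.0a in the submitters' processing notes) to mm10; the counting program and its strand setting are not given in the sources used here. Rows for reads on no gene or on several genes were left out (17.9% to 87.3% of reads fell on no gene). Counts were fitted with edgeR 4.0.16 (R 4.3.3, limma 3.58.1) by the quasi-likelihood test after TMM scaling and filterByExpr, 12 libraries per population, or all 24 in 8 groups to compare populations, with Benjamini-Hochberg adjustment over all genes tested. The study used DESeq2, tried here as an alternative (1.42.0). Normalized CPM used the TMM sizes of 24 libraries, log2 CPM a prior count of 2, and levels per kb the exon lengths of GENCODE M21. The fits were tested on simulated data. Figures were drawn with matplotlib 3.10.9 (Python 3.11.15).

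Groups came from the sample labels. The members and lists were chosen with earlier results of these data known. All 10 members were named, with the called genes of each other list, at most 5 per comparison by largest fold change, or the 3 of lowest p at most, and the 5 genes most like Fos and Egr1 at a mean CPM of at least 5. The test across replicate numbers was added after the values were seen. Replicate numbers were taken to pair samples where each correlation of same-numbered deviations from the group means exceeded the limit of 0.1, as for Plcg1-/-Plcg2-/- against Plcg1+/+Plcg2-/- B cell progenitors (0.13 to 0.253) and, in CLPs, against Plcg1-/-Plcg2+/+ (0.346 to 0.612) and Plcg1+/+Plcg2-/- cells (0.204 to 0.484). The libraries of each mouse were paired by the animal tag. Alternatives were another normalization, no filter, DESeq2, adjusted p alone, the share of reads on no gene as covariate, both compared groups alone, left-out libraries and the replicate block. Some single-gene results of the marker and upstream lists are not reported here.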

Additional observations from a re-analysis of the deposited data

How the results depend on the processing

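For 15 of 17 comparisons the count of called members was 0, and a count that stays at 0 says nothing about stability. For Plcg1-/-Plcg2-/- against Plcg1+/+Plcg2+/+ B cell progenitors, the replicate block gave 2 called members in place of 0 and 550 called genes in place of 134. They were Fosb (log2 difference -1.42, adjusted p 0.00865) and Jund (-1.31, 0.00267) by edgeR's quasi-likelihood test. The numbers did not pair these groups over all tested genes, since correlations of same-numbered libraries ran from -0.0933 to 0.218. This fit was therefore not taken as the main one. Of the B cell progenitor libraries 7 of 12, and of the CLP libraries 10 of 12, correlated best with their own number. In alternatives chosen after seeing the data, Jund was called under the block in all 6 fits that left out 1 library of these groups, and Fosb in 4 of 6, not without the Plcg1-/-Plcg2-/- library numbered 2 or 3. Leaving out libraries there gave 0 to 1 called members, with 1 only without all libraries numbered 1. Against Plcg1-/-Plcg2+/+ B cell progenitors, whose numbers did not pair either, the block gave 1, Fosb (-1.23, adjusted p 0.0439 by edgeR's quasi-likelihood test), and against Plcg1+/+Plcg2-/- it gave 1, Jund. The block changed no other call between genotypes.

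Between B cell progenitors and CLPs, DESeq2 gave 2 called members, the block by mouse 3 and the covariate for reads on no gene 0, and leaving out 1 library gave 1 to 7. With that covariate, Fosb, Egr1 and Jund reversed, at log2 differences of 1.28, 1.45 and -0.030, none of them called. The covariate nearly coincides with the population by construction. Across replicate numbers, all chosen after seeing the data, leaving out 1 library gave 0 to 9 called members in CLPs, and DESeq2's likelihood ratio test gave 2. In B cell progenitors, leaving out 1 library gave 9 to 10. Depth limits Egr2 and Egr3 most, with as few as 1 and 3 reads in a library.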
